A study of Homo sapiens with 6 samples.

Results

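The genes described here are the kinesin motors and centromere proteins of AN3CA cells, taken as every listed gene whose symbol is KIF or CENP followed by the usual family number or letter. The pattern took 51 of the 17471 listed genes, of which 34 were kinesins and 17 were CENP genes. They were sorted by textbook role into 13 mitotic kinesins, 9 transport kinesins of the KIF1, KIF3 and KIF5 types, 12 other kinesins and 17 CENP genes. AN3CA is an established human endometrial cancer (EC) line that expresses *PAX2*, which encodes a developmental transcription factor. RNA-Seq was available for 3 libraries of cells transduced with the empty hairpin vector pGFP-C-shLenti (shEV, genotype label WT) and for 3 libraries of cells transduced with the vector carrying a hairpin against *PAX2* (shPAX2, genotype label *PAX2* KD). Both groups were transduced populations selected with puromycin, and a single hairpin sequence was used, so an effect of *PAX2* loss and an effect of that hairpin or of the selected population cannot be told apart. The empty vector is what the labels and the study's transduction methods give, while other passages of the study speak of a scrambled control for AN3CA. Labels number the libraries 1 to 3 within a group and do not say whether these came from separate cultures. The p-values therefore measure the spread between these libraries, which may be technical.

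Kinesins are motor proteins that walk along microtubules or shorten their ends, powered by ATP. Mitotic kinesins build the bipolar spindle, move and align chromosomes and prepare the cell for division, and their transcripts are made mostly in the G2 and M phases of the cell cycle. Transport kinesins carry vesicles, mitochondria and other cargo and also work in cells that do not divide, with *KIF1A*, *KIF5A* and *KIF5C* best known from neurons. CENP proteins mark the centromere through the histone variant CENP-A, hold the constitutive network of proteins on top of it and link it to the kinetochore, the structure that microtubules grip. In bulk RNA, fewer cells in mitosis and less RNA per mitotic cell cannot be told apart.

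Promoters were examined for motifs that cell cycle genes often share, because the lists differ in when their genes are transcribed. The windows were the RefSeq promoters of the GRCh38.p14 assembly, 250 bases before and 50 bases from each gene start, and 42 of the 51 members had one. Sets of letters were searched on both strands, CCAAT (the CCAAT box, bound by NF-Y), TTTGAA (the cell cycle genes homology region, CHR) and GTCACG (letters at the core of sites for PAX paired domains). In no member did a CCAAT match share a base with a TTTGAA match. The 150 bases just before the start are shown for some members that hold both cell cycle motifs and for *KIF1A*. The former are the spindle motor *KIF11*, the chromosome-alignment motor *KIF18A*, the central-spindle motor *KIF23* and the centromeric histone *CENPA*. The vesicle motor *KIF1A* had the largest change of any member and holds neither motif. Other members also hold neither, among them the transport kinesins *KIF1C*, *KIF3A*, *KIF3C* and *KIF5C* and the mitotic kinesins *KIF2A* and *KIF2C*. A relation of motifs to changes was not tested. Capitals mark CCAAT or TTTGAA on either strand (ATTGG and TTCAAA are the same motifs read on the other strand).
KIF11, chr10:92592980-92593129, plus strand: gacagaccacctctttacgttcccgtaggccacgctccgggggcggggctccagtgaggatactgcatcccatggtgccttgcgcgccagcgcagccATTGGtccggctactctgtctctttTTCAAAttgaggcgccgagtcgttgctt
KIF18A, chr11:28108157-28108306, minus strand: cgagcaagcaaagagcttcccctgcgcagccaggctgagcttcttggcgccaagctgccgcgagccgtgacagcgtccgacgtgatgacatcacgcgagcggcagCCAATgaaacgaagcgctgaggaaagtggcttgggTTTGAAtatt
KIF23, chr15:69414199-69414348, plus strand: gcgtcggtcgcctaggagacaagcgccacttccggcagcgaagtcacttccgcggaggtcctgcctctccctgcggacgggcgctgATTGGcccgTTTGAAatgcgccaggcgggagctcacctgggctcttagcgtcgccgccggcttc
CENPA, chr2:26785906-26786055, plus strand: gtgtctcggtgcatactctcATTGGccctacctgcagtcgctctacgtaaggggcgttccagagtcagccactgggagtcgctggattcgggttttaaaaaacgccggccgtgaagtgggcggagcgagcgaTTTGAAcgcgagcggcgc
KIF1A, chr2:240821404-240821553, minus strand: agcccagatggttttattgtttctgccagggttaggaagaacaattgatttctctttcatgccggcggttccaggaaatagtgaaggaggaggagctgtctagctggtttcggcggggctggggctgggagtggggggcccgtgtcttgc

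In the mitotic kinesins the CCAAT box was found in 10 of 13 windows (76.9%) and TTTGAA in 9 of 13 (69.2%). Both stood in 8 of 13 (61.5%), namely *KIF4A*, *KIF4B*, *KIF11*, *KIF14*, *KIF18A*, *KIF18B*, *KIF20B* and *KIF23*. These counts hold *KIF4B*, a near-identical copy of *KIF4A* that was too low to be among the genes tested below. Of 8 transport kinesins with a window, 3 held CCAAT (37.5%) and 1, *KIF5B*, held TTTGAA (12.5%). Of 8 other kinesins, 1 held CCAAT (*KIF24*) and 0 held TTTGAA. In the CENP genes CCAAT was found in 6 of 13 windows (46.2%) and TTTGAA in 4 of 13 (30.8%), with both in *CENPA*, *CENPF* and *CENPN* (23.1%). Among all 35116 windows of the table, 34.6% held CCAAT, 15.2% held TTTGAA and 5.90% held both, and among the 9090 windows of genes tested below these shares were 37.6%, 9.45% and 4.15%. GTCACG was found in *KIF18A*, *CENPE*, *CENPO* and *CENPP* only among the members (9.52% of 42 windows), against 9.02% of all windows and 14.2% of those of tested genes. These are matches of letters, not measured binding sites.

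**Figure D1:**
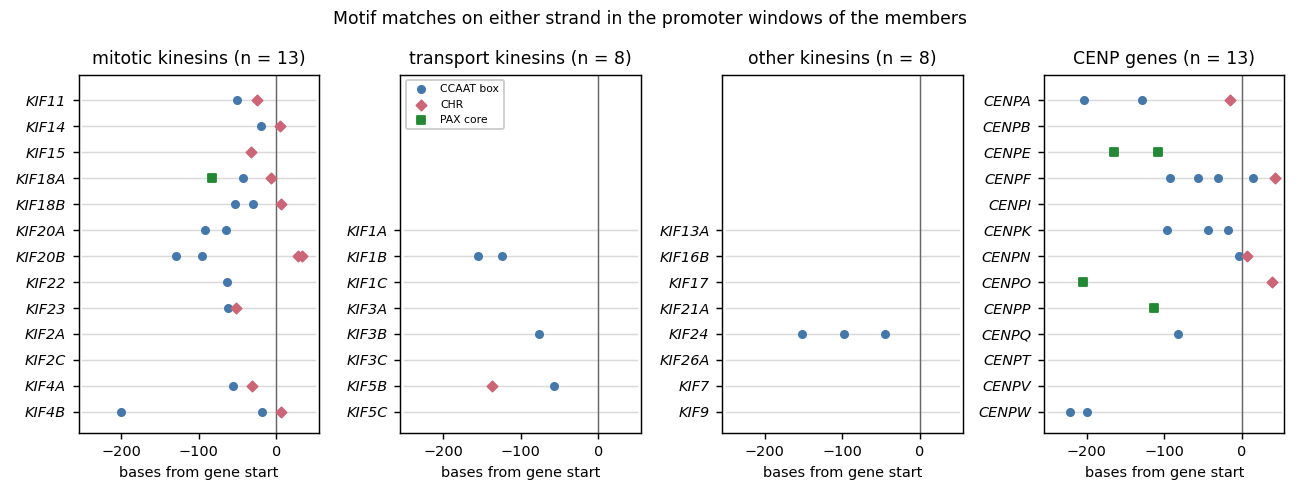
Positions of CCAAT, CHR (TTTGAA) and PAX core (GTCACG) matches on either strand in the promoter windows of 42 members, in bases from the gene start (vertical line), 1 row per gene in 4 panels by role. In mitotic kinesins the TTTGAA matches lie between bases −55 and 36, with CCAAT in 10 of 13 windows and TTTGAA in 9 of 13. *KIF1A* has no match, and neither have other members, among them *KIF1C*, *KIF3A*, *KIF3C*, *KIF5C*, *KIF2A* and *KIF2C*.

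The libraries were compared before the members. The deposited values were TPM (reads scaled by gene length and library total), and whole reads were recovered from them. The shEV libraries held 10730909 to 18221859 reads and the shPAX2 libraries 19422615 to 29405787, so depth and group cannot be told apart. *PAX2*, the target, was 4.03, 3.66 and 2.74 TPM in the shEV libraries and 0.916, 0.723 and 1.17 TPM in the shPAX2 libraries, with no overlap between groups. It fell by 1.47 on the log2 scale (SE 0.18, limma adjusted p = 0.00029), and the exact permutation test of TPM gave a two-sided p = 0.10, the smallest that 3 against 3 libraries allow. Of 8 markers of epithelium, the labelled cell type, 7 were listed and only *KRT18* reached the tested levels (11.2 TPM in shEV and 14.9 TPM in shPAX2). The other 6, *EPCAM* and *CDH1* among them, had at most 6 reads in any library, while *VIM*, an intermediate filament of mesenchymal cells, averaged 4010 TPM. Of the other listed mesenchymal or stromal markers, *COL1A1* was near 1 TPM, and the collagen gene *COL1A2* averaged 836 ± 24.3 TPM (SD, n = 3) in the shEV libraries and 390 ± 43.1 TPM (SD, n = 3) in the shPAX2 libraries, a log2 fold change of −1.11 (SE 0.08, limma adjusted p = 1.8e-05). Its relation to the members' values was not tested. The 4 listed markers of leukocytes and endothelium also had at most 6 reads in every library.

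Of the 51 members, 49 passed the filter of at least 0.5 TPM in at least 3 libraries and were tested among 13163 genes. The pair below it were *KIF4B*, a near-identical intronless copy of *KIF4A*, with 1 to 6 reads per library, and *KIF17*, a motor of cilia and dendrites, with 0 to 8 reads. The tested members had 64 to 17407 reads per library. At a limma adjusted p under 0.05, 18 of 49 members were called (36.7%), against 42.8% of all tested genes. Of these, 6 rose (*KIF1A*, *CENPV*, *CENPW*, *CENPB*, *KIF13A* and *CENPI*) against 12.2% of all tested genes, and 12 fell (*KIF26B*, *KIF5A*, *CENPJ*, *KIF18A*, *CENPE*, *KIF7*, *KIF3B*, *KIF15*, *KIF21A*, *KIF24*, *KIF5B* and *CENPF*) against 30.5%. Only *KIF1A* was also past an absolute log2 fold change of 1, which 4.54% of all tested genes were. At a stricter adjusted p under 0.01, 3 members were higher (*KIF1A*, *CENPW* and *CENPV*), against 7.14% of all tested genes, and 8 were lower, against 18.4%. The share called among the members was thus near that among all genes. The groups did not overlap in 24 of 49 tested members, against 7226 of all 13163 tested genes, so lack of overlap was common in the whole table.

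The direction of small changes depended on the scaling. The median log2 fold change (shPAX2 minus shEV) of all tested genes was −0.10 on the TPM as deposited and 0.00 after median-of-ratios scaling, which sets the median gene to no change. After that scaling 10 members were higher, against 21.2% of all tested genes, and 8 were lower, against 19.9%. *CENPA*, *CENPQ*, *KIF22* and *KIF4A* joined the higher members, and *KIF5B*, *KIF7*, *KIF24* and *CENPF* were no longer called. Quantile normalization gave 10 higher, against 18.0% of all tested genes, and 9 lower, against 18.9%. The counts by role were 0 higher and 2 lower of 12 mitotic kinesins, 1 and 3 of 9 transport kinesins, 1 and 4 of 11 other kinesins, and 4 and 3 of 17 CENP genes on the TPM as deposited. After median-of-ratios scaling they were 2 and 2, 1 and 2, 1 and 2, and 6 and 2 in the same order.

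**Figure D2:**
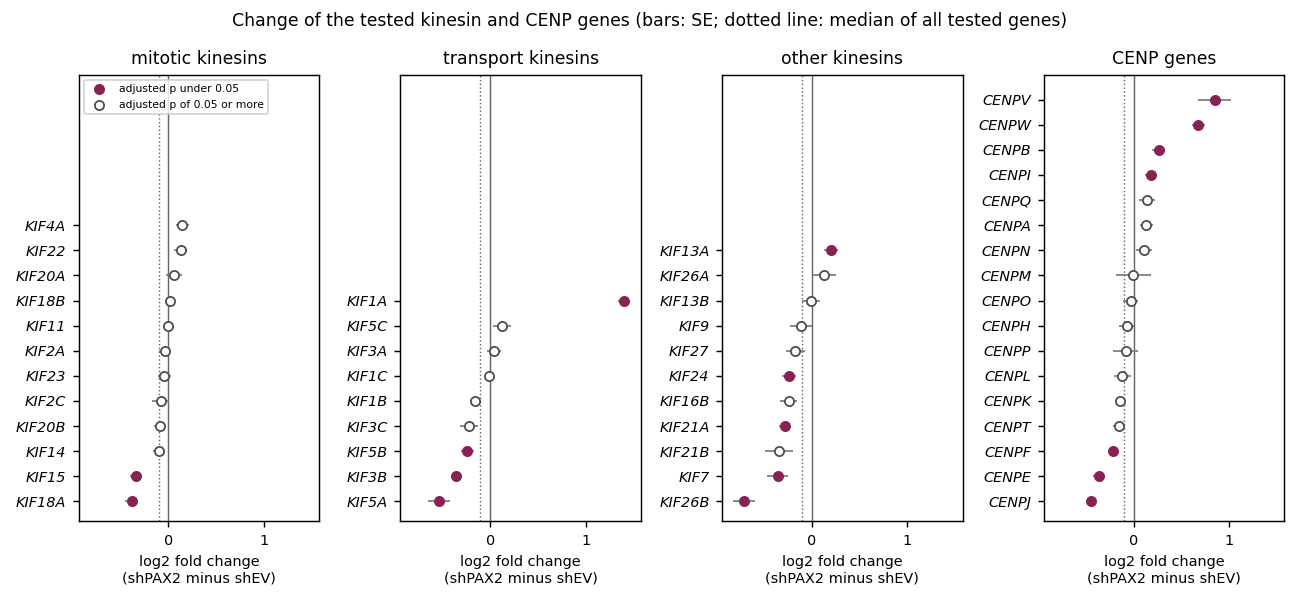
Log2 fold change (shPAX2 minus shEV, on log2(TPM + 0.5)) of the 49 tested members in 4 panels by role, with the SE of the limma fit as bars and filled points where the adjusted p is under 0.05. The solid line is 0 and the dotted line is the median of all tested genes (−0.10), and *KIF1A* at 1.40 stands apart from all other members.

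Mitotic kinesins were abundant and most did not pass the test. The 13 listed members averaged 0.068 to 200 TPM over the 6 libraries, with 12 of them at 20 TPM or more and *KIF4B* as the exception. *KIF11*, the plus-end motor that pushes the spindle poles apart, was the most abundant member of any role, above 94.7% of tested genes. *KIF11* measured 207, 191 and 202 TPM in the shEV libraries and 201, 198 and 200 TPM in the shPAX2 libraries. The shPAX2 values lay inside the shEV range, and the log2 fold change was 0.00 (SE 0.06, limma adjusted p = 0.97), or 0.10 after median-of-ratios scaling.

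*KIF18A*, which dampens chromosome movement at the metaphase plate, and *KIF15*, a spindle motor that can share the work of *KIF11*, were the members of the mitotic list that fell. The kinetochore motor *CENPE*, which also fell, was counted with the CENP genes by its symbol. The C-terminal kinesin *KIFC1*, which rose, was counted with the partners, so the mitotic counts hold neither. Values of *KIF18A* were 60.6, 56.0 and 64.7 TPM in shEV and 45.8, 45.2 and 47.1 TPM in shPAX2. Values of *KIF15* were 59.4, 58.6 and 60.9 TPM in shEV and 48.1, 45.3 and 47.3 TPM in shPAX2. In both genes every shPAX2 library was below every shEV library. *KIF18A* fell by 0.39 (SE 0.07, limma adjusted p = 0.0018) and *KIF15* fell by 0.34 (SE 0.05, adjusted p = 0.0013) on the log2 scale, and both calls held under all 15 alternatives to the fit.

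The motors of the central spindle and cytokinesis did not pass the test. *KIF20A* was 167, 152 and 145 TPM in the shEV libraries and 145, 164 and 177 TPM in the shPAX2 libraries. *KIF23*, the motor subunit of centralspindlin, was 142, 133 and 134 TPM in shEV and 121, 135 and 141 TPM in shPAX2. The groups overlapped in both. The log2 fold change was 0.06 for *KIF20A* (SE 0.09, limma adjusted p = 0.59) and −0.04 for *KIF23* (SE 0.07, adjusted p = 0.64), the latter 0.06 after median-of-ratios scaling. The other tested mitotic kinesins were *KIF2A*, *KIF2C*, *KIF4A*, *KIF14*, *KIF18B*, *KIF20B* and *KIF22*, with log2 fold changes from −0.10 for *KIF14* to 0.15 for the chromosome-arm motor *KIF4A*. *KIF4A* was called higher under 4 of the 15 alternatives and *KIF22* under 1, median-of-ratios scaling, where their limma adjusted p-values were 0.012 and 0.018.

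Among the transport kinesins *KIF1A* rose and *KIF5A*, *KIF3B* and *KIF5B* fell. *KIF1A*, which carries synaptic vesicle precursors and dense-core vesicles in neurons, lies on chr2:241653178-241763710 (GRCh37, minus strand). It was at 9.94, 9.24 and 9.32 TPM in shEV and at 25.8, 26.4 and 25.4 TPM in shPAX2. The groups were far apart relative to the spread within either. The mean was 9.50 ± 0.38 TPM (SD, n = 3) in shEV and 25.9 ± 0.55 TPM (SD, n = 3) in shPAX2, a ratio of 2.72, and the log2 fold change was 1.40 (SE 0.06, limma adjusted p = 1.1e-06). Its share of the summed TPM of the 9 transport kinesins was 2.21% ± 0.053 (SD, n = 3) in shEV and 6.45% ± 0.23 (SD, n = 3) in shPAX2. The call held under all 15 alternatives, with adjusted p of at most 5.1e-05.

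*KIF5B*, the heavy chain of the ubiquitous kinesin-1, was the most abundant transport kinesin. It was at 178, 166 and 178 TPM in the shEV libraries and at 134, 151 and 158 TPM in the shPAX2 libraries. The groups did not overlap, and shPAX2 replicate 1 was the lowest library. *KIF5B* fell by 0.24 on the log2 scale (SE 0.07, limma adjusted p = 0.027). The call was lost after median-of-ratios scaling (limma adjusted p = 0.15), without trend and robust moderation (0.0545) and when shEV replicate 1 (0.076), shEV replicate 3 (0.085) or shPAX2 replicate 2 (0.058) was left out.

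The neuronal kinesin-1 chain *KIF5A* was low, at 4.44, 4.85 and 5.00 TPM in shEV and 3.45, 3.26 and 2.71 TPM in shPAX2, with 93 to 206 reads per library. It fell by 0.54 on the log2 scale (SE 0.12, limma adjusted p = 0.0063), with an adjusted p of 0.064 after quantile normalization. *KIF3B*, a subunit of the kinesin-2 motor that moves cargo along cilia, was at 53.2, 50.4 and 52.6 TPM in shEV and at 40.0, 39.9 and 41.5 TPM in shPAX2. Every shPAX2 library was below every shEV library for both genes. *KIF3B* fell by 0.36 on the log2 scale (SE 0.05, limma adjusted p = 0.0010), and the call held under all 15 alternatives.

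The remaining transport kinesins did not pass the test. *KIF1C*, a motor of Golgi and secretory cargo, was the second most abundant at a mean of 119 TPM in shEV and 118 TPM in shPAX2 (log2 fold change −0.01, SE 0.05). *KIF3A*, the usual partner of *KIF3B* in kinesin-2, had a log2 fold change of 0.04 (SE 0.07), and *KIF5C* of 0.13 (SE 0.09). *KIF1B* and *KIF3C* had −0.15 (SE 0.06) and −0.22 (SE 0.10). Their limma adjusted p-values ran from 0.053 for *KIF1B* to 0.87 for *KIF1C*.

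The other kinesins, with roles in cilia, Hedgehog signalling, endosomes and microtubule dynamics, were the least abundant list. Their means ran from 0.095 to 23.3 TPM, and 8 of 12 averaged under 10 TPM. *KIF26B*, a motor-like protein of developing kidney and of cell adhesion, was at 3.58, 3.39 and 3.33 TPM in shEV and at 1.92, 1.91 and 1.86 TPM in shPAX2. The groups were clearly separate, although only 132 to 219 reads stood behind each value. *KIF26B* fell by 0.71 on the log2 scale (SE 0.11, limma adjusted p = 0.0012), the largest fall of any member.

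*KIF21A*, which restrains microtubule growth at the cell cortex, was the most abundant of the other kinesins. It was at 26.2, 25.0 and 25.7 TPM in shEV and 20.7, 20.7 and 21.4 TPM in shPAX2. *KIF7*, a regulator of Hedgehog signalling at the tip of the cilium, was at 18.3, 17.8 and 16.8 TPM in shEV and 14.8, 15.3 and 11.2 TPM in shPAX2. Neither gene showed overlap between groups, and in *KIF7* the lowest value was that of shPAX2 replicate 3. *KIF21A* fell by 0.28 (SE 0.06, limma adjusted p = 0.0044) and *KIF7* fell by 0.36 (SE 0.11, adjusted p = 0.030) on the log2 scale. The call of *KIF7* was lost after median-of-ratios scaling (limma adjusted p = 0.10) or quantile normalization (0.15), with no filter (0.063) and without trend and robust moderation (0.059). It was also lost without shEV replicate 1 (limma adjusted p = 0.086), shEV replicate 2 (0.084), shEV replicate 3 (0.058) or shPAX2 replicate 3 (0.058).

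*KIF24*, which restrains cilium assembly at the centriole, fell by 0.24 on the log2 scale (SE 0.08, limma adjusted p = 0.030), and *KIF13A*, an endosome motor, rose by 0.20 (SE 0.07, adjusted p = 0.045). Both calls were among the weakest. That of *KIF24* held under 8 of the 15 alternatives and was lost, among others, after median-of-ratios scaling (limma adjusted p = 0.18) or quantile normalization (0.54) and without shEV replicate 1 (0.080), shEV replicate 2 (0.090), shPAX2 replicate 1 (0.072) or shPAX2 replicate 2 (0.081). That of *KIF13A* also held under 8 and was lost, among others, with no filter (adjusted p = 0.052) and without shEV replicate 1 (limma adjusted p = 0.12), shEV replicate 2 (0.13), shPAX2 replicate 1 (0.065), shPAX2 replicate 2 (0.12) or shPAX2 replicate 3 (0.11). *KIF9*, *KIF13B*, *KIF16B*, *KIF21B*, *KIF26A* and *KIF27* did not pass the test, with log2 fold changes from −0.35 for *KIF21B* (SE 0.15) to 0.13 for *KIF26A* (SE 0.12).

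The CENP genes held the largest rises after that of *KIF1A*. Of 11 tested members of the constitutive centromere network, 2 rose and 0 fell (18.2% called, against 42.8% of all tested genes, of which 12.2% rose and 30.5% fell). Close to the threshold were *CENPI*, called higher (limma adjusted p = 0.047), and *CENPK*, lower but not called (0.0508). *CENPW*, a histone-fold protein that pairs with CENP-T at the centromere, was the most abundant CENP gene. It was at 132, 113 and 124 TPM in the shEV libraries and at 200, 203 and 187 TPM in the shPAX2 libraries. The groups were well apart, with a ratio of means of 1.60. *CENPW* rose by 0.68 on the log2 scale (SE 0.07, limma adjusted p = 0.00012), and the call held under all 15 alternatives.

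*CENPW* lies on chr6:126661261-126670021 (GRCh37, plus strand), and genes of chromosome 6 were higher in shPAX2 as a whole. The 634 tested genes on chromosome 6 gave a median log2 fold change of 0.39, compared with −0.11 over the 12003 tested genes placed elsewhere. *CENPW* was above 82.0% of the chromosome's tested genes, 0.29 over their median. The other members on chromosome 6, *KIF13A* at 0.20 and *CENPQ* at 0.14, stood at percentiles 31.2 and 26.3 of the same genes. The part of this shift in the 3 values was not tested.

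*CENPI*, also of the constitutive network, rose by 0.18 on the log2 scale (SE 0.06, limma adjusted p = 0.047). This call held under 8 of the 15 alternatives and was lost, among others, with no filter (limma adjusted p = 0.062) and without trend and robust moderation (0.072). It was also lost without shEV replicate 2 (limma adjusted p = 0.15), shEV replicate 3 (0.098), shPAX2 replicate 2 (0.18) or shPAX2 replicate 3 (0.087). The remaining 9 network members, *CENPH*, *CENPK*, *CENPL*, *CENPM*, *CENPN*, *CENPO*, *CENPP*, *CENPQ* and *CENPT*, did not pass the test. Their log2 fold changes ran from −0.16 for *CENPT* (SE 0.07, limma adjusted p = 0.085) to 0.14 for *CENPQ* (SE 0.08, adjusted p = 0.21), the latter called after median-of-ratios scaling (0.035) and after quantile normalization (0.026). *CENPK* came nearest to a call, with a log2 fold change of −0.15 (SE 0.05, limma adjusted p = 0.0508). It was called lower under 1 of the 15 alternatives and had a log2 fold change of −0.04 after median-of-ratios scaling. *CENPM* had the widest spread of the CENP network relative to its mean, at 44.2, 39.7 and 29.9 TPM in shEV and 31.1, 38.7 and 43.3 TPM in shPAX2.

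The histone variant *CENPA*, which marks the centromere, was at 43.0, 39.9 and 39.6 TPM in shEV and at 48.8, 42.7 and 43.2 TPM in shPAX2. The groups overlapped by a narrow margin. Its log2 fold change was 0.13 (SE 0.07, limma adjusted p = 0.15), or 0.24 with an adjusted p of 0.027 after median-of-ratios scaling. *CENPB*, which binds a motif in centromeric satellite DNA, rose by 0.26 on the log2 scale (SE 0.07, limma adjusted p = 0.011), with an adjusted p of 0.055 without shPAX2 replicate 2.

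The kinetochore motor *CENPE*, itself a kinesin, and the large coiled-coil protein *CENPF* fell. *CENPE* was at 52.8, 48.2 and 52.5 TPM in shEV and at 39.0, 40.3 and 39.5 TPM in shPAX2. *CENPF* was at 136, 132 and 137 TPM in shEV and at 110, 119 and 120 TPM in shPAX2. Neither gene showed overlap between the groups. *CENPE* fell by 0.37 (SE 0.06, limma adjusted p = 0.0013) and *CENPF* fell by 0.22 (SE 0.06, adjusted p = 0.015) on the log2 scale. The call of *CENPE* held under all 15 alternatives, while that of *CENPF* was lost after median-of-ratios scaling (adjusted p = 0.13) and without shEV replicate 3 (0.0502).

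Both CENP genes with main roles away from the kinetochore were called, in opposite directions. *CENPV*, described at the spindle midzone, was at 25.6, 24.8 and 22.5 TPM in shEV and at 33.3, 49.5 and 52.0 TPM in shPAX2. All shPAX2 libraries were above all shEV libraries, but shPAX2 replicate 1 lay nearer to shEV than to the other two. *CENPV* rose by 0.85 on the log2 scale (SE 0.17, limma adjusted p = 0.0098), and by 1.05 without shPAX2 replicate 1. *CENPJ*, which controls the length of centrioles, was at 39.0, 37.7 and 39.2 TPM in shEV and at 28.5, 27.7 and 28.4 TPM in shPAX2. It fell by 0.45 on the log2 scale (SE 0.05, limma adjusted p = 0.00030), a call that held under all 15 alternatives.

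**Figure D3:**
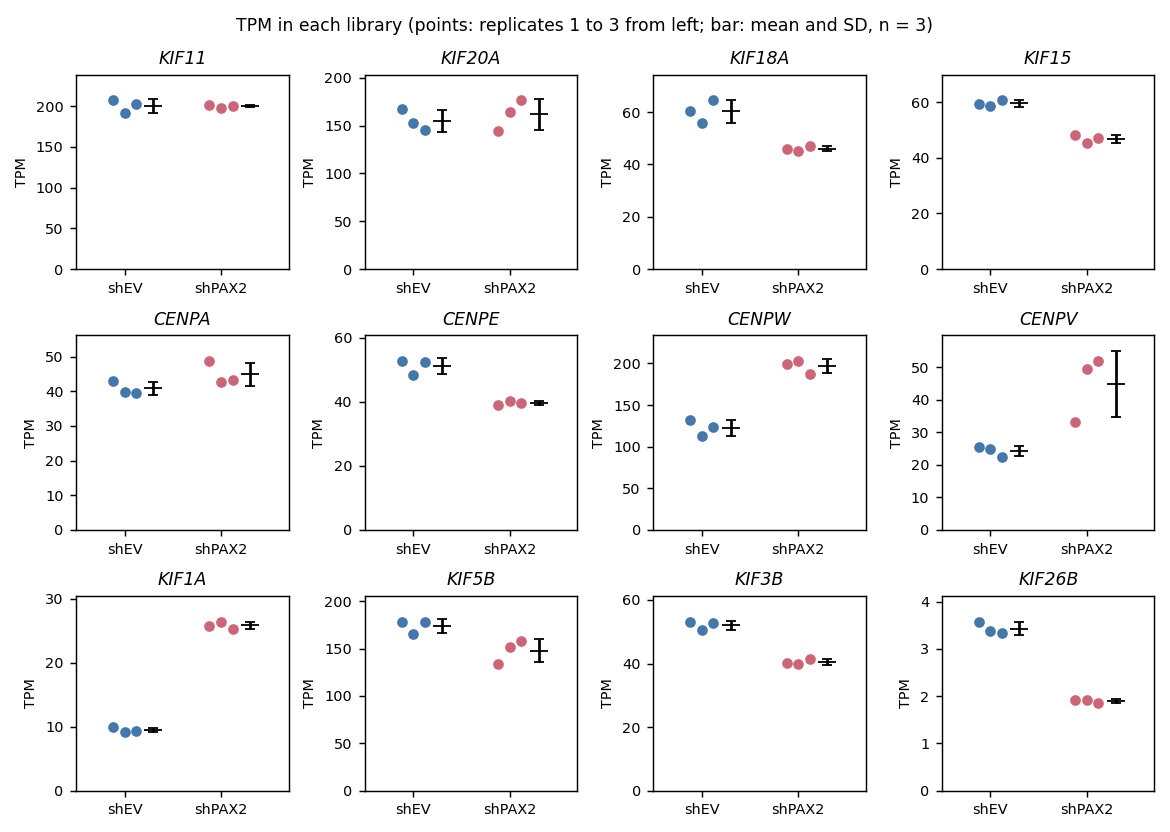
TPM of 12 members in each library, with replicates 1 to 3 from left to right within a group, mean and SD (n = 3) at the right of each group, and axes that start at 0. *KIF11*, *KIF20A* and *CENPA* overlap between groups, *KIF1A*, *CENPW* and *CENPV* lie higher in every shPAX2 library, and *KIF18A*, *KIF15*, *CENPE*, *KIF5B*, *KIF3B* and *KIF26B* lie lower.

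Set side by side by role, the mitotic kinesins had the highest levels and, on the TPM as deposited, the lowest median absolute change. The median of mean TPM was 62.8 in mitotic kinesins, 41.0 in CENP genes, 17.7 in transport kinesins and 6.42 in other kinesins. The median absolute log2 fold change was 0.084 in the 12 mitotic kinesins, 0.15 in the 17 CENP genes, 0.22 in the 9 transport kinesins and 0.24 in the 11 other kinesins, against 0.22 in all tested genes. The share called was 16.7% in mitotic kinesins, 41.2% in CENP genes, 44.4% in transport kinesins and 45.5% in other kinesins, against 42.8% of all tested genes. After median-of-ratios scaling these shares were 33.3%, 47.1%, 33.3% and 27.3%, against 41.1% of all tested genes, so the order of the roles depended on the scaling. The mitotic list was taken by symbol and holds neither *CENPE* nor *KIFC1*. Members are not replicates, and the differences between roles were not tested.

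The median log2 fold change, taken relative to that of all tested genes, was 0.06 for mitotic kinesins, 0.07 for CENP genes and −0.05 for transport kinesins. After median-of-ratios scaling these were 0.07, 0.08 and −0.05, and after quantile normalization −0.04, 0.05 and −0.06, so the sign of the mitotic value depended on the scaling. Summed over the 13 mitotic kinesins, TPM was 1148, 1072 and 1089 in the shEV libraries and 1036, 1086 and 1118 in the shPAX2 libraries, with overlap between the groups. The 9 transport kinesins summed to 439, 416 and 432 TPM in shEV and 387, 406 and 409 TPM in shPAX2, and the 12 other kinesins to 108, 105 and 106 TPM in shEV and 95.1, 95.5 and 90.7 TPM in shPAX2. In both lists every shPAX2 sum was below every shEV sum on the TPM as deposited. Median-of-ratios factors were 1.02 to 1.05 in shEV and 0.957 to 0.975 in shPAX2. Dividing by them lowers the shEV sums relative to the shPAX2 sums, so the order of the close transport sums depends on the scaling. The CENP genes summed to 916, 851 and 879 TPM in shEV and 921, 969 and 959 TPM in shPAX2, of which *CENPW* gave a mean of 123 TPM in shEV and 197 TPM in shPAX2.

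Within groups, the mitotic and CENP genes were not lowest or highest equally often in each library. shPAX2 replicate 1, the deepest library, was the lowest of its group in 11 of 17 CENP genes and 6 of 12 mitotic kinesins. shEV replicate 1, the shallowest library, was the highest of its group in 11 of 17 CENP genes and 9 of 12 mitotic kinesins, and shEV replicate 2 was the lowest in 11 and 7. These counts are on the TPM as deposited, and the same counts over all tested genes were not made. The median-of-ratios factors, taken over genes of the whole table, were also lowest in shEV replicate 2 (1.02) and shPAX2 replicate 1 (0.957) within their groups. Taken relative to the median of all tested genes, the lowest shEV median was that of replicate 3 in both lists (−0.060 in mitotic kinesins, −0.097 in CENP genes). The lowest shPAX2 median was still that of replicate 1 (−0.034 and −0.027). The proliferation markers *MKI67*, *TOP2A*, *CCNB1* and *CDK1* did not pass the test between groups, while the replication genes *PCNA* and *MCM2* rose by 0.43 (SE 0.09, limma adjusted p = 0.0062) and 0.27 (SE 0.06, adjusted p = 0.0075). The summed TPM of these 6 markers was 1322 to 1435 in shEV and 1426 to 1514 in shPAX2. The part of cell cycle distribution or depth in the members' values was not tested.

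**Figure D4:**
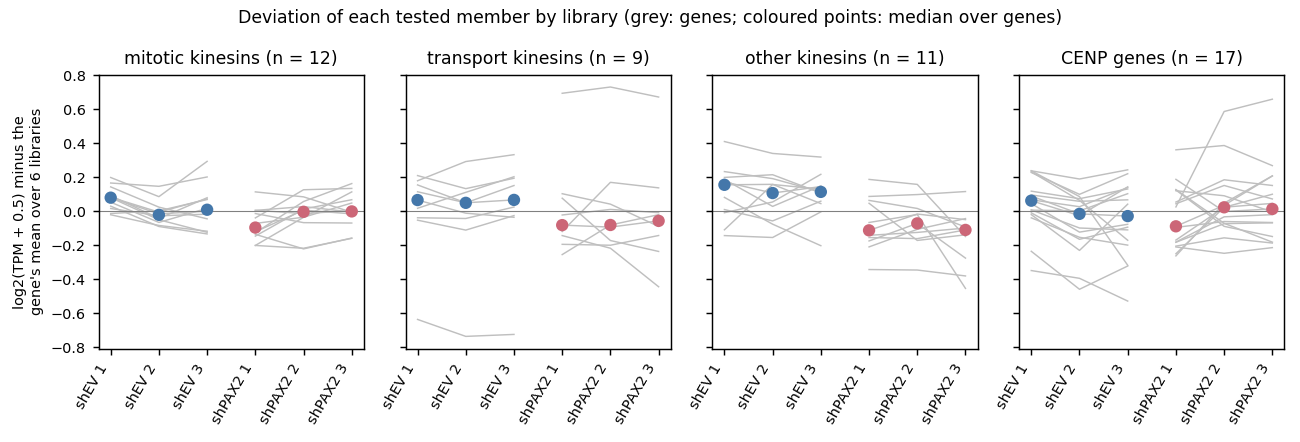
Deviation of each tested member from its own mean over 6 libraries, on log2(TPM + 0.5), by library and role, with a grey line per gene within a group and coloured points for the median over genes. The mitotic kinesins (n = 12) and CENP genes (n = 17) have their highest shEV median in replicate 1 and their lowest shPAX2 median in replicate 1, and the outlying line of the transport kinesins is *KIF1A*.

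Ratios of TPM between genes whose products work together were computed per library, as a description and for pairs chosen after the values had been seen. *KIF3B* to *KIF3A*, the partners in kinesin-2, was 3.11, 2.96 and 2.94 in shEV and 2.12, 2.20 and 2.52 in shPAX2. *KIF15* to *KIF11*, motors that act in parallel on the spindle, was 0.286, 0.307 and 0.301 in shEV and 0.239, 0.228 and 0.236 in shPAX2. *CENPW* to *CENPT*, partners in a histone-fold dimer, was 3.24, 2.85 and 2.90 in shEV and 5.85, 5.36 and 4.89 in shPAX2. The groups did not overlap in these 3 ratios, nor in *CENPN* to *CENPL*, with means of 1.10 ± 0.078 in shEV and 1.29 ± 0.077 in shPAX2 (SD, n = 3). Of single genes, 7226 of 13163 tested did not overlap either, and no such share was taken over other pairs. They overlapped for *CENPH* to *CENPK* and for *KIF23* to its centralspindlin partner *RACGAP1*, at 1.30 ± 0.047 in shEV and 1.25 ± 0.036 in shPAX2 (SD, n = 3). Such ratios within a library do not depend on a scaling by a common factor per library, but quantile normalization can change them.

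Partners of these proteins outside the symbol pattern were counted from lists of the same complexes. Of 62 listed partners 60 were tested, with 13 higher and 11 lower at a limma adjusted p under 0.05, or 18 higher and 3 lower after median-of-ratios scaling. Among all tested genes 12.2% were higher and 30.5% lower, or 21.2% and 19.9% after that scaling. Centromere proteins under older symbols and CENP-A loading factors had 3 higher and 3 lower of 9. The outer kinetochore had 1 higher and 2 lower of 13, led by *DSN1* (log2 fold change 0.29, SE 0.07), and the spindle checkpoint had 3 higher and 0 lower of 9, led by the kinase *TTK* on chromosome 6 (0.32, SE 0.07). The chromosomal passenger complex and central spindle had 3 higher and 3 lower of 12, led by the scaffold *INCENP* (−0.48, SE 0.05). Kinesin subunits and C-terminal kinesins had 2 higher and 2 lower of 8, led by *KIFC2* (−0.95, SE 0.12). The 2 higher, *KLC4* and *KIFC1*, both lie on chromosome 6. Cytoplasmic dynein-1 had 1 higher and 1 lower of 9, led by the light chain *DYNLT1* on chromosome 6 (0.39, SE 0.09). No partner was past an absolute log2 fold change of 1.

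Reads of some members may be shared with overlapping genes. In the GRCh37 annotation, 1 member shared exon bases with another listed gene on the same strand (*CENPA* with *SLC35F6*) and 13 only with a gene on the opposite strand. The longest overlaps of the latter kind were *CENPP* with *IPPK* (3720 bases), *KIF2A* with *DIMT1* (2446 bases), *CENPO* with *ADCY3* (1488 bases), *KIF9* with *KIF9-AS1* (870 bases), *CENPT* with *TSNAXIP1* (596 bases) and *KIF7* with *TICRR* (589 bases). *CENPV* shared 258 bases with *PIGL* and *KIF5A* 71 bases with *DCTN2*. The libraries were stranded, but whether reads were counted by strand for this line is not given in the sources used here. *KIF4A* and its copy *KIF4B* could also exchange reads, although *KIF4B* held at most 6 reads per library against at least 1240 in *KIF4A*.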

How the data were processed

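The libraries were stranded total RNA libraries, per the labels. The authors deposited 1 table of TPM per gene for 6 libraries. Per the submitters' processing notes the authors used bcl2fastq, STAR, Subread, featureCounts and edgeR with hg19, while the study's methods name STAR and RSEM for another line. Which made the TPM is not given in the sources used here. Ratios of the deposited TPM between libraries were ratios of whole numbers in 100% of genes (relative tolerance 1e-09), so reads were recovered up to a factor common to a gene's libraries and gave the depth. Precision was limited by 3 libraries per group and, in low genes, by reads.

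Genes that reached 0.5 TPM in 3 or more libraries entered limma 3.58.1 (R 4.3.3, lmFit, then eBayes using trend and robust). Values were log2(TPM + 0.5), a scale that understates changes of low genes. Tests were two-sided with Benjamini-Hochberg adjustment over 13163 genes. The fit was tested on simulated data. Alternatives were other pseudocounts (0.1 and 1), no filter or 5 TPM, median-of-ratios and quantile scaling, eBayes without trend and robust, a replicate block, each library left out, voom on recovered reads and an adjusted p under 0.01. The members, lists and tests were chosen with earlier results of these data known. Values per library were given for members past a log2 fold change of 1, the 3 largest called changes and the highest mean in each role, and *KIF11*, *KIF20A*, *KIF23*, *KIF5B*, *CENPA*, *CENPE* and *CENPF*, with *CENPM* added after its values were seen. For each partner list the largest called change was named, except for an item that is not reported here. Positions came from GENCODE release 44 on GRCh37 (16561 of 17471 symbols matched) and promoters from RefSeq on GRCh38.p14. *KIF2B*, *KIF6*, *KIF12*, *KIF19*, *KIF25* and *KIF28P* were not analysed here.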

Additional observations from a re-analysis of the deposited data

How the results depend on the processing

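Under the alternatives, 328 comparisons were made for the 22 members that were called or taken by the naming rule. In 281 direction and side of the threshold were kept, in 38 a call was lost, in 1 (*CENPA*) gained and in 8 the sign changed. The last were *KIF11* (0.10 after median-of-ratios scaling, 0.0167 with voom, −0.0369 to 0.0226 with a library left out), *KIF20A* (−0.0036 to 0.14 with a library left out, lowest without shPAX2 replicate 3) and *KIF23* (0.0632 after median-of-ratios scaling, −0.0883 to 0.0188 with a library left out). Over all 49 tested members, 16 changed sign under some alternative, 0 of them called on the TPM as deposited, and 11 of the 31 not called were called under some alternative. Such counts were not made over all tested genes. The count of higher members, 6, was 10 after median-of-ratios scaling, 10 after quantile normalization, 3 at an adjusted p under 0.01, and 3 to 6 with a library left out, lowest without shPAX2 replicate 2. Among all tested genes 975 of 13014 were higher without that library, against 1612 of 13163 with it. Lower members numbered 8 to 15 over all alternatives, against 12. Median-of-ratios scaling gave 8, where 2626 of 13163 tested genes were lower, and voom gave 15, where 3986 were, against 4017 on the TPM as deposited. Members past the fold threshold numbered 1 to 2 with a library left out, *CENPV* joining without shPAX2 replicate 1. Relative to all tested genes, the median of mitotic kinesins was −0.0428 after quantile normalization and 0.0224 to 0.0963 with a library left out. That of CENP genes was 0.0368 to 0.147 with a library left out, highest without shPAX2 replicate 1. That of transport kinesins was −0.0871 with no filter, −0.0019 with a filter at 5 TPM, and −0.0701 to −0.0342 with a library left out. *PAX2* was below the 5 TPM filter, and its log2 fold change ran from −1.87 (voom) to −1.20 (pseudocount 1).

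Same-numbered libraries of both groups deviated from their group means with correlations of −0.052, 0.082 and 0.0014, so no shared deviation by number was seen on this scale. Whether same-numbered libraries were handled together cannot be told from these values or the labels. With the replicate block 4 members were higher and 11 lower, as *CENPI* (limma adjusted p = 0.084), *KIF13A* (0.066) and *KIF24* (0.058) were no longer called. Among all 13163 tested genes 1489 were higher and 3623 lower with the block, against 1612 and 4017 without it. With 1 library left out of a group, the fit borrows the spread of the other libraries. What caused these shifts was not tested.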
